A study of Oryctolagus cuniculus with 16 samples.

Results

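The intima of the basilar terminus (BT), where the basilar artery ends and splits into its branches, was compared with the intima of the straight basilar artery (BA) upstream of it, in the rabbits whose carotid arteries had been ligated. The members are 4 of the 16 libraries of the series, chosen by their labels as intima under high flow: the BT and the BA of rabbit 5 and the BT and the BA of rabbit 6. Because both locations were cut from the same animal, each BT library was paired with the BA library of its rabbit. All animals were female New Zealand white rabbits without any transgene, and no age was given. Rabbits 5 and 6 had both common carotid arteries tied, which sends more blood through the basilar artery, and tissue was taken after 24 h. Rabbits 3 and 4 had sham surgery and supplied the same locations under normal flow. Strips about 10 µm wide were laser-microdissected from the luminal edge of frozen 8 µm sections, strips from several sections were pooled per library, and the rest of the wall was collected as media. A library is therefore a mix of all sections of 1 location in 1 rabbit, and the comparison rests on 2 animals.

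Endothelial cells (ECs) line the lumen and turn the drag of flowing blood, the wall shear stress, into chemical signals such as nitric oxide, prostanoids and endothelin. A bifurcation splits the stream on its apex, so that ECs there meet stronger and more uneven forces than ECs of a straight segment, and such apices are where cerebral aneurysms tend to begin. The ECs also hold blood fluid: they carry receptors and enzymes that restrain clotting and dissolve fibrin, and proteases that remodel the matrix under them.

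Counts on named genes were 10092525 and 11462861 in the BT libraries of rabbits 5 and 6 and 8842006 and 5211886 in the BA libraries. A count of 0 allows up to 3 counts, which corresponded to 0.247 to 0.513 CPM in these libraries and covers counting error only. Levels are CPM, counts scaled to a common library size after a correction for composition. The endothelial label was borne out by the markers: PECAM1, an EC adhesion molecule, was at 812 and 641 CPM in the BT and 445 and 657 CPM in the BA, and the summed level of 18 endothelial markers was 5446 and 5593 CPM in the BT and 3880 and 5491 CPM in the BA, against 630 to 1742 CPM in the 4 medial libraries of the same rabbits. Smooth muscle RNA was present too, and the paper states that some smooth muscle could not be avoided in cutting the intima. The sum of 13 smooth muscle markers was 25369 and 78792 CPM in the BT and 67944 and 71456 CPM in the BA, so that the BT library of rabbit 5 held 0.373 times the smooth muscle signal of its BA partner while that ratio was 1.10 in rabbit 6. In the 4 medial libraries of the same rabbits the sum was 111556 to 176707 CPM. Markers of fibroblasts and leptomeningeal cells summed to 1309 and 2447 CPM in the BT and to 5930 and 1964 CPM in the BA. The BA library of rabbit 5 stood out here: DCN, a proteoglycan of fibroblasts, was at 0 and 32.4 CPM in the BT and 1939.8 and 17.5 CPM in the BA. Macrophage markers summed to 185 and 70.7 CPM in the BT and 217 and 109 CPM in the BA, with C1QB, CX3CR1 and P2RY12 at 0 in all 4 libraries. The 7 neutrophil markers summed to 877 and 724 CPM in the BT and 2602 and 1800 CPM in the BA. Nearly all of each sum was S100A9, while LTF, CAMP, MMP8, CSF3R and MPO were at 0 in all 4. Lymphocyte markers reached at most 2.14 CPM in sum, and brain parenchymal markers at most 13.8 CPM, with AQP4, MOG and RBFOX3 at 0. Mesothelial and ependymal markers summed to 216 and 9.55 CPM in the BT and 9.37 and 33.9 CPM in the BA, and nerve sheath markers to 34.8 and 160.1 CPM in the BT and 160.6 and 105 CPM in the BA, so that the libraries of rabbit 5 differed in these too. In such samples fewer cells of a type and less RNA per cell cannot be told apart.

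**Figure D1:**
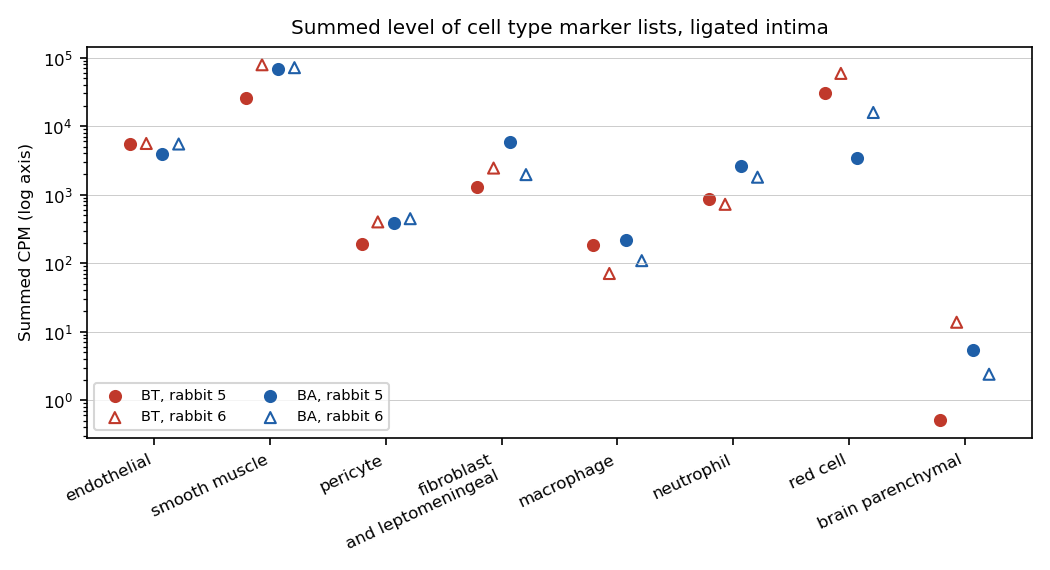
Summed CPM (log axis) of the marker genes of 8 cell types in the 4 intimal libraries of ligated rabbits; red is the BT, blue the BA, filled circles rabbit 5 and open triangles rabbit 6. Endothelial sums lay between 3880 and 5593 CPM, the BT library of rabbit 5 had the lowest smooth muscle sum (25369 CPM), and red cell sums were higher in the BT than in the BA of each rabbit.

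Of 8649 genes tested with edgeR's quasi-likelihood test and rabbit as a block, 0 reached a q-value below 0.05 (0.00% called, in either direction). At an unadjusted p below 0.05 there were 221 genes (2.56%), 94 higher in the BT (1.09%) and 127 lower (1.47%). DESeq2 called 58 genes and limma-voom 2, HBB2 and ISG15. The smallest q was 0.211, for CXCL10, and q was 1 for every other gene described below in the ligated intima. Genes whose log2 fold change or bound is given below had an unadjusted p below 0.05 unless stated otherwise. No gene is therefore described as changed, and the values below say which genes differed alike in both rabbits. Higher in the BT in both rabbits were 2172 genes (25.1%), and lower in both 2106 (24.3%). Both BT libraries lay above both BA libraries for 1309 genes (15.1%) and below them for 1278 (14.8%).

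The animals were not alike. Across the 8649 genes, the log2 ratios of BT to BA in rabbits 5 and 6 had a correlation of 0.034 (Pearson's r across genes, which are not independent replicates and share the scaling of each library). The SD of these ratios was 1.81 in rabbit 5 and 1.14 in rabbit 6. Without rabbit 6, 249 genes passed the q threshold (63 higher, 186 lower), with a spread borrowed from the sham rabbits, and without rabbit 5 only CXCL10 did.

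**Figure D2:**
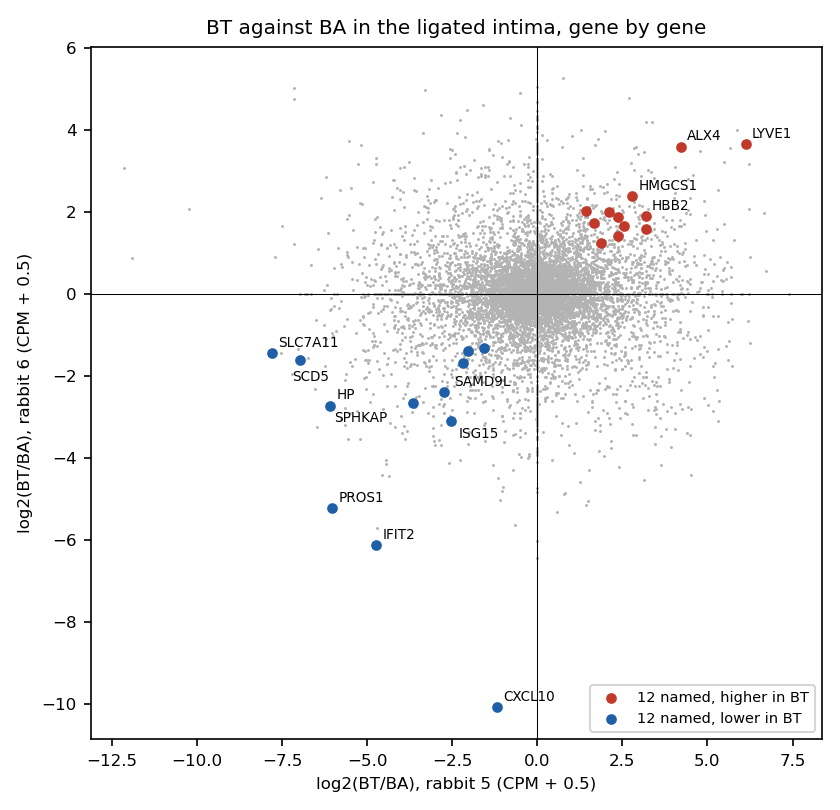
Log2 ratio of BT to BA in rabbit 5 (horizontal) against rabbit 6 (vertical), on CPM + 0.5, for each tested gene in the ligated intima (grey); red and blue points are the 12 genes with the smallest p in each direction among genes above 10 CPM that moved the same way in both rabbits. The cloud is round (r = 0.034) and wider along rabbit 5, and CXCL10 lies far down because its difference came from rabbit 6.

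Interferon-stimulated genes, which cells switch on when they sense viral or damaged nucleic acid or receive interferon, were lower in the BT. Of 19 tested, 0 were higher and 10 lower in the BT in both rabbits (25.1% and 24.3% of all genes), and 6 of the 19 had an unadjusted p below 0.05, all lower (1.47% of all genes). These 6 include CXCL10 and CXCL11, whose difference rested on the BA library of rabbit 6. The list's median log2 fold change was -2.49, beside -0.03 over all genes. The shift was -0.63 in rabbit 5 and -3.05 in rabbit 6 by the median of the single rabbits' ratios. ISG15, a ubiquitin-like protein joined to other proteins after interferon, was at 19.9 and 43.6 CPM in the BT and 119 and 379.8 CPM in the BA. Both BT libraries lay below both BA libraries, the BA exceeding the BT 5.99-fold in rabbit 5 and 8.72-fold in rabbit 6 (log2 fold change -2.87 ± 0.38, SE). SAMD9L, an antiviral growth restrainer, was at 9.50 and 9.80 CPM in the BT and 66.9 and 53.7 CPM in the BA, again apart, with a log2 fold change of -2.64 ± 0.58 (SE). IFIT2, which binds foreign RNA, had no count in either BT library and 12.8 and 34.7 CPM in the BA, at least 49.3-fold lower in rabbit 5 and at least 141-fold lower in rabbit 6.

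The chemokines of this response rested on rabbit 6. CXCL10, which draws activated T cells, had no count in the BT and 0.639 and 547 CPM in the BA, which makes it at least 2213-fold lower in the BT of rabbit 6 but at least 2.47-fold in rabbit 5, where the BA held 6 counts (q = 0.211). Its relative CXCL11 and the antiviral enzyme RSAD2 were at 0 in 3 libraries and at 32.3 and 42.9 CPM in the BA of rabbit 6. IFI44L was at 9.59 and 9.06 CPM in the BT and 40.7 and 16.8 CPM in the BA (unadjusted p above 0.05), and its groups did not overlap.

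Genes that govern clotting and its reversal were split. Of 14 tested, 3 were higher and 3 lower in the BT at an unadjusted p below 0.05 (1.09% and 1.47% of all genes). The list median was 0.42. PROCR, the endothelial receptor that speeds activation of the anticoagulant protein C, was at 326 and 221 CPM in the BT and 55.6 and 69.8 CPM in the BA. The BT exceeded the BA 5.86-fold in rabbit 5 and 3.16-fold in rabbit 6, and the groups did not overlap (log2 fold change 2.10 ± 0.40, SE). PLAT, the tissue plasminogen activator that ECs release to dissolve fibrin, was at 378 and 463 CPM in the BT and 141 and 114 CPM in the BA, a log2 fold change of 1.71 ± 0.36 (SE). Its urokinase counterpart PLAU was at 361 and 280.3 CPM in the BT and 122 and 181 CPM in the BA (1.09 ± 0.39, SE). All 3 showed both BT libraries above both BA libraries. Their inhibitor SERPINE2 was at 985 and 636 CPM in the BT and 569 and 439.7 CPM in the BA (unadjusted p above 0.05), and the urokinase receptor PLAUR was at 116 and 89.5 CPM in the BT and 28.4 and 114 CPM in the BA, with opposite differences in the rabbits (unadjusted p above 0.05).

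On the lower side, PROS1, the protein S cofactor of activated protein C, had no count in the BT and 32.2 and 18.1 CPM in the BA, at least 124-fold lower in rabbit 5 and at least 73.4-fold in rabbit 6. The protease receptor F2RL1 likewise had no count in the BT and 10.3 and 8.38 CPM in the BA. VWF, the platelet-tethering glycoprotein stored by ECs, was at 241 and 673 CPM in the BT and 624 and 1059 CPM in the BA, lower in the BT of each rabbit but with overlapping groups (-1.02 ± 0.36, SE). F3, the tissue factor that starts coagulation, was at 0 and 1.56 CPM in the BT and 53.6 and 5.65 CPM in the BA (unadjusted p above 0.05), and most of that level lay in the BA library of rabbit 5, which also had the highest fibroblast sum (5930 CPM). The part of such cells in these values was not tested.

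Metalloproteinases, which cut matrix and cell surface proteins, were listed together with their inhibitors. Of 24 tested, 4 were higher in the BT and 0 lower at an unadjusted p below 0.05, beside 1.09% and 1.47% of all genes. In both rabbits 10 were higher and 3 lower (25.1% and 24.3% of all genes), and the median was 0.52 (0.38 in rabbit 5, 0.58 in rabbit 6). ADAMTS1, a secreted protease that cleaves versican and is known as a brake on angiogenesis, was at 2586 and 969 CPM in the BT and 716 and 474 CPM in the BA, with both BT libraries above both BA libraries (1.43 ± 0.39, SE). ADAMTS6 was at 73.9 and 80.6 CPM in the BT and 29.3 and 32.3 CPM in the BA, 2.52-fold in rabbit 5 and 2.49-fold in rabbit 6, which is nearly the same ratio in each animal (1.32 ± 0.45, SE). ADAMTS9 was at 140.4 and 147 CPM in the BT and 30.9 and 101 CPM in the BA (1.35 ± 0.52, SE). The membrane-bound ADAM15 was at 198 and 282 CPM in the BT and 62.1 and 183 CPM in the BA (1.13 ± 0.40, SE). In each of these genes both rabbits had the higher level at the BT. Of the inhibitors, TIMP1 was at 17324 and 7902 CPM in the BT and 4763 and 6046 CPM in the BA (1.11 ± 0.51, SE, unadjusted p above 0.05) and TIMP3 at 1267 and 1457 CPM in the BT and 905 and 857 CPM in the BA (0.62 ± 0.34, SE, unadjusted p above 0.05). Both inhibitors were higher in both BT libraries, with p above 0.05.

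EC identity and flow-responsive genes each held a few members at an unadjusted p below 0.05, a larger share than the 2.56% of all genes. Among 17 endothelial markers, ENG was higher and VWF lower at an unadjusted p below 0.05, and the median was 0.26. ENG, a co-receptor for bone morphogenetic proteins, was at 61.5 and 110.2 CPM in the BT and 17.4 and 67.9 CPM in the BA (1.25 ± 0.49, SE), and its groups overlapped. CDH5, the cadherin of EC junctions, was at 82.6 and 54.2 CPM in the BT and 10.3 and 55.3 CPM in the BA, so that only rabbit 5 had a difference (unadjusted p above 0.05). NOS3, which makes nitric oxide, was at 1407 and 871 CPM in the BT and 733 and 638 CPM in the BA, with non-overlapping groups and a log2 fold change of 0.68 ± 0.35 (SE, unadjusted p above 0.05). Its substrate is recycled by ASS1, which was at 503 and 263 CPM in the BT and 172 and 194 CPM in the BA (0.98 ± 0.41, SE, unadjusted p above 0.05). Of 19 flow-responsive genes, 0 were higher and 2 lower at an unadjusted p below 0.05 (1.09% and 1.47% of all genes). EDN1, the precursor of the constrictor endothelin, was at 6.74 and 57.6 CPM in the BT and 40.6 and 116 CPM in the BA (-1.80 ± 0.57, SE), and SELENOP, a selenium carrier, was at 89.9 and 158 CPM in the BT and 133 and 371 CPM in the BA (-0.91 ± 0.36, SE). The BT had the lower EDN1 level in each rabbit, although its level in rabbit 6 lay above that of the BA in rabbit 5.

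Receptors and ligands that set vascular tone and growth gave single members. PTGER4, a receptor for the dilator prostaglandin E2, was at 71.5 and 15.2 CPM in the BT and 2.34 and 5.82 CPM in the BA (3.13 ± 1.17, SE). The prostaglandin synthase PTGS2 was at 809.8 and 627 CPM in the BT and 578 and 386 CPM in the BA (unadjusted p above 0.05), higher in both BT libraries. PTHLH, a parathyroid hormone-like peptide that relaxes smooth muscle, was at 582 and 121 CPM in the BT and 182 and 36.3 CPM in the BA. Its ratios were close, 3.20-fold in rabbit 5 and 3.34-fold in rabbit 6, while the level of the BT in rabbit 6 lay below that of the BA in rabbit 5 (1.70 ± 0.34, SE). TACR1, the substance P receptor, was at 275 and 43.8 CPM in the BT and 113 and 15.6 CPM in the BA (1.37 ± 0.36, SE). CALCRL, the receptor shared by adrenomedullin and calcitonin gene-related peptide, was at 2011 and 972 CPM in the BT and 1002 and 989 CPM in the BA (unadjusted p above 0.05). Of 25 vasoactive genes tested, 1 was higher and 1 lower at an unadjusted p below 0.05 (1.09% and 1.47% of all genes). Their median was -0.13.

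HBEGF, an epidermal growth factor relative shed from the cell surface, was at 254 and 32.9 CPM in the BT and 30.7 and 12.1 CPM in the BA, higher in both BT libraries (2.25 ± 0.54, SE). BMP2 was at 131 and 23.7 CPM in the BT and 10.3 and 17.5 CPM in the BA (unadjusted p above 0.05), a difference almost wholly of rabbit 5. BMP3, which opposes other bone morphogenetic proteins, had no count in the BT and 12.6 and 25.8 CPM in the BA, at least 48.5-fold lower in rabbit 5 and at least 105-fold in rabbit 6. With XIRP2, PROS1 and IFIT2 it was 1 of 4 genes that had no count in either BT library and over 10 CPM in both BA libraries; 0 genes showed the opposite. The BA libraries had fewer counts in each rabbit, so their floors were the higher ones.

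Inflammatory genes apart from the interferon-driven chemokines were few. CXCL8, the chief neutrophil-attracting chemokine, was at 28.8 and 7.49 CPM in the BT and had no count in the BA, at least 90.1-fold higher in rabbit 5 and at least 14.6-fold in rabbit 6. CSF2 had counts in the BT library of rabbit 5 alone (21.0 and 0 CPM in the BT). VCAM1, a leukocyte adhesion molecule, was at 7461 and 4309 CPM in the BT and 4062 and 3929 CPM in the BA (unadjusted p above 0.05). Of 19 genes in the list, 2 were higher and 2 lower at an unadjusted p below 0.05 (1.09% and 1.47% of all genes). The lower ones were CXCL10 and CXCL11, counted above. S100A9, a calcium-binding protein of neutrophils and monocytes that other stressed cells can make, was at 872 and 723 CPM in the BT and 2574 and 1799 CPM in the BA, lower in both BT libraries (-1.45 ± 0.35, SE). Its usual partner S100A8 was at 5.27 and 0.906 CPM in the BT and 28.5 and 0.513 CPM in the BA (unadjusted p above 0.05).

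Genes of cholesterol synthesis and uptake were higher in the BT. These were listed after HMGCS1 had been seen among the named genes, so the count is a description. Of 16 tested, 12 were higher and 0 lower in both rabbits, beside 25.1% and 24.3% of all genes. An unadjusted p below 0.05 was found for 5, all higher (1.09% of all genes). The median was 1.23, with 1.9 in rabbit 5 and 0.64 in rabbit 6. HMGCS1, which makes the precursor of mevalonate, was at 82.2 and 43.6 CPM in the BT and 11.5 and 7.87 CPM in the BA, 7.14-fold in rabbit 5 and 5.53-fold in rabbit 6 (2.64 ± 0.57, SE). Further along the pathway, CYP51A1 was at 91.8 and 18.0 CPM in the BT and 0.745 and 3.94 CPM in the BA, with 7 counts behind the lowest value. LSS, which closes the sterol rings, was at 71.5 and 31.9 CPM in the BT and 20.8 and 13.5 CPM in the BA. MSMO1 was at 426 and 116 CPM in the BT and 41.0 and 74.6 CPM in the BA and NSDHL at 129.5 and 78.7 CPM in the BT and 24.2 and 44.3 CPM in the BA. In all 5, both BT libraries lay above both BA libraries. SQLE was at 199 and 38.0 CPM in the BT and 39.8 and 28.9 CPM in the BA (unadjusted p above 0.05) and FDFT1 at 296 and 162 CPM in the BT and 99.6 and 123 CPM in the BA (unadjusted p above 0.05).

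Red cell genes were also higher in the BT. This list, too, was drawn up after its leading members had been seen. Of 14 tested, 10 were higher and 0 lower in both rabbits (25.1% and 24.3% of all genes). An unadjusted p below 0.05 was found for 7, all higher (1.09% of all genes). The median log2 fold change was 2.47, or 2.26 with genes lacking counts in a location set at their bound. HBB2, a beta-globin, was at 29861 and 56851 CPM in the BT and 3275 and 15268 CPM in the BA, so that the BT exceeded the BA 9.12-fold in rabbit 5 and 3.72-fold in rabbit 6 (2.53 ± 0.54, SE). ALAS2, the first enzyme of heme synthesis in red cell precursors, was at 142 and 717 CPM in the BT and 27.3 and 195 CPM in the BA (2.11 ± 0.36, SE). BPGM, which sets the oxygen affinity of hemoglobin, was at 113 and 340.2 CPM in the BT and 30.9 and 142 CPM in the BA (1.55 ± 0.36, SE), and HBQ1_2 at 56.5 and 271 CPM in the BT and 5.75 and 90.0 CPM in the BA. The authors kept only uniquely mapped reads, so reads shared by near-identical globin copies would have been left out. The animals had been perfused with heparinized saline before the tissue was taken. Summed over 16 red cell genes, the level was 30308 and 58915 CPM in the BT and 3422 and 15848 CPM in the BA, and in the sham intima 2188 and 131027 CPM in the BT and 230 and 93401 CPM in the BA of rabbits 3 and 4. The sum, most of it HBB2, was higher at the BT in each of the 4 rabbits, but the other members differed in sham rabbit 4, where the list's median log2 ratio was -0.25 (0.89 in rabbit 3). In the sham intima ALAS2 was at 6.02 and 391 CPM in the BT and 0 and 552 CPM in the BA of rabbits 3 and 4, BPGM at 142 and 287 and 126 and 394 CPM and HBQ1_2 at 21.3 and 327 and 2.09 and 381 CPM, all 3 lower in the BT of rabbit 4. How much of this RNA came from blood left in the vessel was not tested.

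The remaining named genes higher in the BT belong to no list. ALX4, a homeobox factor known from the mesenchyme of the head, was at 24.5 and 30.4 CPM in the BT and 0.852 and 2.05 CPM in the BA, 28.8-fold in rabbit 5 and 14.8-fold in rabbit 6 (4.33 ± 1.04, SE). LYVE1, a hyaluronan receptor of lymphatic ECs and of macrophages beside vessels, was at 64.0 and 10.1 CPM in the BT and 0.426 and 0.342 CPM in the BA, the BA values resting on 4 and 2 counts, too few for a fold. Of 9 macrophage markers tested, LYVE1 included, 1 was higher and 3 lower in both rabbits (25.1% and 24.3% of all genes). Their median log2 ratio was -4.83 in rabbit 5 and 0.22 in rabbit 6. C1QC was at 0 and 0.494 CPM in the BT and 25.2 and 1.20 CPM in the BA and CD74 at 0 and 0.247 CPM in the BT and 13.7 and 3.59 CPM in the BA, both with an unadjusted p above 0.05. The part of macrophages in the LYVE1 level was not tested. NUP155, a protein of the nuclear pore, was at 139 and 105 CPM in the BT and 26.4 and 39.4 CPM in the BA (1.89 ± 0.46, SE). The twelfth of these was an entry whose symbol a date had replaced, at 69.6 and 106 CPM in the BT and 15.8 and 25.8 CPM in the BA.

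**Figure D3:**
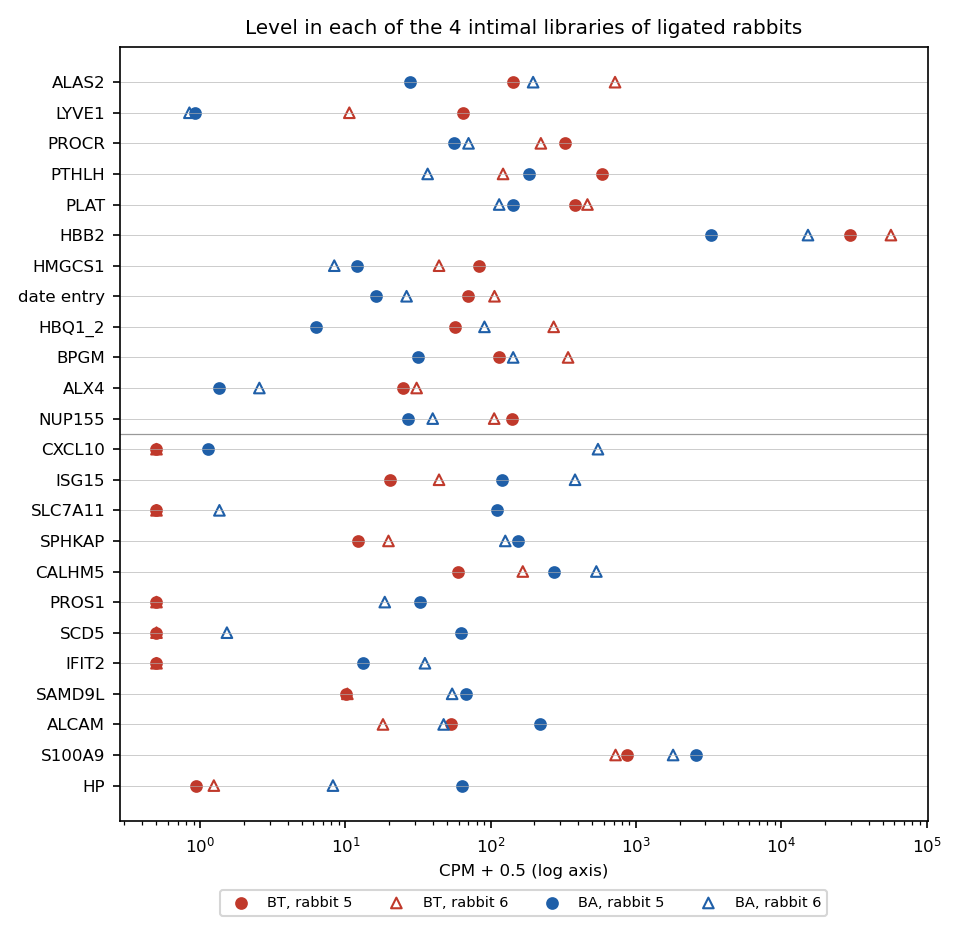
CPM + 0.5 (log axis) in each of the 4 libraries for the 12 named genes higher in the BT (above the line) and the 12 lower (below it); red is the BT, blue the BA, filled circles rabbit 5 and open triangles rabbit 6. SPHKAP, ISG15 and SAMD9L show both BT points left of both BA points, and CXCL10, SLC7A11 and SCD5 show 1 BA point near the floor.

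Among the lower genes, SPHKAP, an anchor for protein kinase A, was at 11.8 and 19.3 CPM in the BT and 153 and 125 CPM in the BA, and the BA exceeded the BT 13.0-fold in rabbit 5 and 6.51-fold in rabbit 6 (-3.21 ± 0.48, SE). CALHM5, of the calcium homeostasis modulator family, was at 59.0 and 166 CPM in the BT and 270.4 and 533 CPM in the BA, with the BA exceeding the BT 4.58-fold in rabbit 5 and 3.22-fold in rabbit 6 (-1.95 ± 0.35, SE). ALCAM, an adhesion molecule of ECs and leukocytes, was at 52.4 and 17.6 CPM in the BT and 217 and 46.9 CPM in the BA, lower in the BT of each rabbit but with overlapping groups. HP, the hemoglobin-binding haptoglobin, was at 0.432 and 0.741 CPM in the BT and 62.9 and 7.70 CPM in the BA, on 5 and 9 counts in the BT. SLC7A11, a subunit of the cystine transporter, and SCD5, a fatty acid desaturase, had no count in the BT. SLC7A11 was at 110.4 and 0.856 CPM and SCD5 at 62.0 and 1.03 CPM in the BA. Nearly all of both lay in the BA library of rabbit 5, the library with the highest DCN level. The part of fibroblast or leptomeningeal cells in these differences was not tested.

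Genes of smooth muscle and matrix were lower in the BT mainly in rabbit 5, whose BT library had the lowest smooth muscle sum; the part of that sum in their values was not tested. ACTA2, the smooth muscle actin, was at 10255 and 45276 CPM in the BT and 39453 and 43516 CPM in the BA (unadjusted p above 0.05). The median of 13 smooth muscle markers was -0.92, with -1.77 in rabbit 5 and 0.22 in rabbit 6. Of 29 genes of the interstitial matrix, 2 were higher and 12 lower in both rabbits (25.1% and 24.3% of all genes). An unadjusted p below 0.05 was found for 0 of them (2.56% of all genes). FN1, fibronectin, was at 2294 and 5535 CPM in the BT and 6931 and 7379 CPM in the BA (unadjusted p above 0.05), TNC at 830.4 and 3090.5 CPM in the BT and 3911 and 2844 CPM in the BA (unadjusted p above 0.05) and OGN at 189 and 371 CPM in the BT and 1573 and 451 CPM in the BA (unadjusted p above 0.05). CTGF, a matricellular target of YAP, was at 2901 and 1109 CPM in the BT and 6682 and 2109.5 CPM in the BA, lower in the BT of each rabbit (-1.08 ± 0.37, SE). It was the only member of 15 YAP and TEAD targets at an unadjusted p below 0.05 (2.56% of all genes). In 18 heat shock and chaperonin genes, 1 was higher and 10 lower in both rabbits (25.1% and 24.3% of all genes), with a median of -0.23. CRYAB, a small heat shock protein abundant in muscle, was at 2527 and 5204 CPM in the BT and 13420.3 and 10126 CPM in the BA (-1.70 ± 0.51, SE). DNAJB4, a co-chaperone, was at 151 and 49.2 CPM in the BT and 324 and 104 CPM in the BA, 2.14-fold in rabbit 5 and 2.12-fold in rabbit 6 lower in the BT (-1.10 ± 0.33, SE). CCT8, a subunit of the cytosolic chaperonin, was at 479.8 and 460.5 CPM in the BT and 741 and 705 CPM in the BA (unadjusted p above 0.05), with both rabbits again close in ratio.

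**Figure D4:**
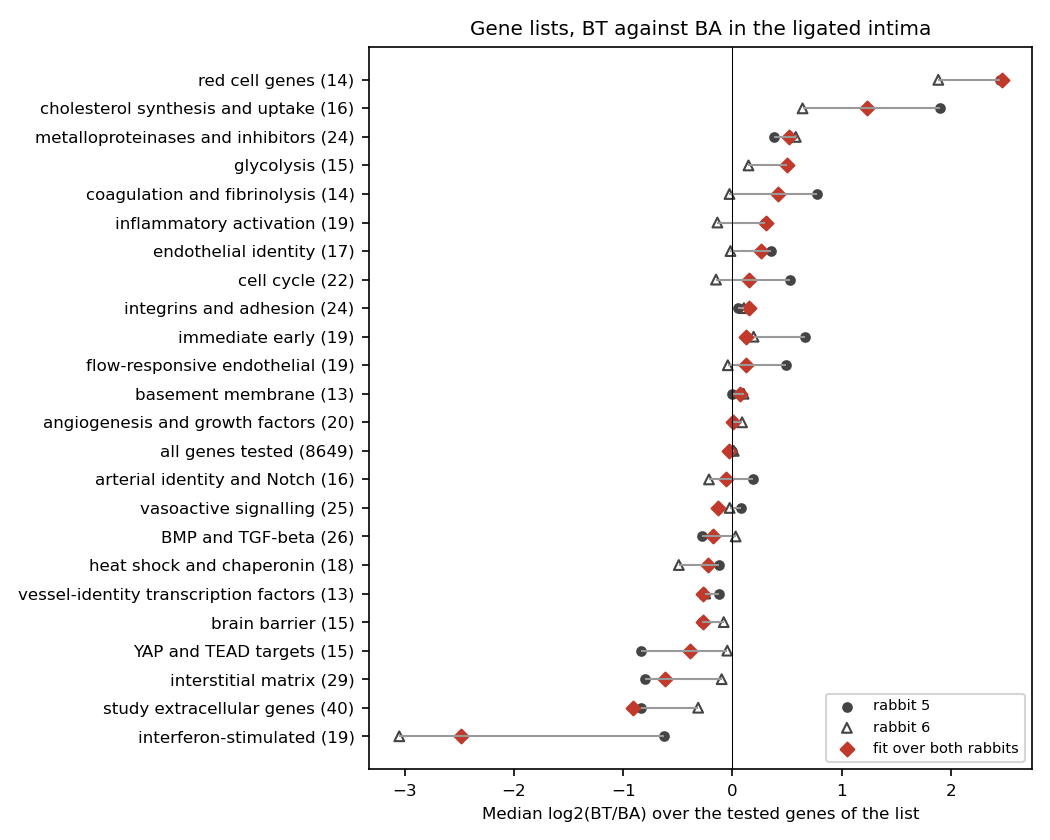
Median log2 ratio of BT to BA over the tested genes of each list (number tested in brackets) in the ligated intima, for rabbit 5 (filled circles), rabbit 6 (open triangles) and the fit over both (red diamonds). Interferon-stimulated genes lie lowest (-2.49) and red cell genes highest (2.47), and the rabbits lie on opposite sides of 0 for several lists with small medians.

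Several lists held 0 members at an unadjusted p below 0.05: arterial identity and Notch (16 tested), integrins and adhesion (24), brain barrier (15), vessel-identity transcription factors (13), immediate early (19), cell cycle (22) and glycolysis (15). CLDN5, the claudin that seals EC junctions in the brain, was at 707 and 1218 CPM in the BT and 639 and 925 CPM in the BA (unadjusted p above 0.05), and FOS, an immediate early factor, at 495 and 282 CPM in the BT and 313 and 171 CPM in the BA (unadjusted p above 0.05). Of 13 basement membrane genes and of 26 BMP and TGF-beta genes, 1 was higher and 1 lower in each list at an unadjusted p below 0.05. Of 20 angiogenesis and growth factor genes, 1 was higher and 0 lower. Over all genes, 1.09% were higher and 1.47% lower at that p, so such small counts say little about these lists. Of 40 tested genes that the study had picked as coding for extracellular products, 6 were higher and 11 lower at that p (1.09% and 1.47% of all genes). That set was chosen on these samples and is not independent evidence of a direction.

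The sham rabbits show whether the same location differences were present under normal flow. There, 10 of 9261 genes passed the q threshold, all higher in the BT (0.108%), a count that was 0 without the rabbit block, 1 with the version 4 quasi-likelihood form and 0 without either rabbit. Of the 12 named genes higher in the BT after ligation, 7 had the same sign in the sham intima and 0 passed the q threshold, and of the 12 lower ones 4 had the same sign and 0 passed in either direction. PTHLH was at 2.57 and 50.5 CPM in the BT and 0.113 and 8.97 CPM in the BA of rabbits 3 and 4 (3.22 ± 0.83, SE, q = 0.397). SPHKAP was at 24.7 and 112 CPM in the BT and 41.3 and 399 CPM in the BA (q = 0.629). These had the direction of the ligated animals. PROCR was at 4.80 and 28.5 and 11.3 and 13.9 CPM and ISG15 at 186 and 535 and 149.7 and 339.7 CPM in the same order, without a shared direction for PROCR and with the higher ISG15 level at the BT in both sham rabbits. Across 8270 genes tested in both, the mean log2 ratios of the ligated and the sham intima had a correlation of -0.041.

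The difference of the location effect between flows was tested as an interaction, and 0 of 9641 genes passed (0.00%), with 332 at an unadjusted p below 0.05 (3.44%). DESeq2 called 63 genes and limma-voom 0. The smallest q was 0.0576, for CXCL10, which in the sham intima was at 12.8 and 52.3 CPM in the BT and 9.81 and 40.4 CPM in the BA. SCD5, at 880.0 and 12.6 CPM in the BT and 61.7 and 4.48 CPM in the BA of the sham rabbits, followed (q = 0.272). VIT, a matrix protein, was at 0 and 0 CPM in the BT and 56.8 and 0 CPM in the BA of the ligated rabbits, so that rabbit 6 had no count at either location, and at 125 and 29.7 CPM in the BT and 19.3 and 1.57 CPM in the BA of the sham rabbits (q = 0.272). The ligated level of VIT lay wholly in the BA library of rabbit 5, which had the highest fibroblast sum of the ligated intima. In the sham intima the fibroblast and leptomeningeal sums were 23511 and 8464 CPM in the BT and 18382 and 6302 CPM in the BA. Those of the ligated intima were lower, from 1309 to 5930 CPM. The part of these sums in the interactions of SCD5 and VIT was not tested. In the other direction, the interaction was 2.60 ± 0.62 for NUP155 (SE), 2.67 ± 0.64 for TACR1 and 3.22 ± 0.80 for HBEGF, each with a q of 1. HMGCS1, with 12.1 and 7.17 CPM in the BT and 25.2 and 7.25 CPM in the BA of the sham rabbits, had an interaction of 3.18 ± 0.88 (SE).

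The media under the same intima gave a further 4 libraries of rabbits 5 and 6. In it 178 of 8545 genes passed the q threshold (2.08%), 78 higher in the BT (0.913%) and 100 lower (1.17%). That count was 1 without the rabbit block and 0 with edgeR's version 4 quasi-likelihood form. Of the 12 named genes higher in the intimal BT, 9 had the same sign in the media and 4 passed: PLAT, ALX4, HBB2 and PROCR. PLAT was at 233 and 219.7 CPM in the BT and 74.9 and 19.1 CPM in the BA media (2.55 ± 0.35, SE, q = 7.82e-10). ALX4 was at 90.1 and 56.0 CPM and 4.75 and 8.91 CPM (3.34 ± 0.55, SE, q = 1.02e-06). PROCR was at 127 and 79.8 CPM and 65.9 and 23.3 CPM (1.34 ± 0.39, SE, q = 0.0314). HBB2 was at 3531 and 1621 CPM and 597 and 2127 CPM (q = 0.00133), so that it was higher in the BT media of rabbit 5 and lower in that of rabbit 6. Thus PLAT, PROCR and ALX4 were higher in the BT in both layers of both rabbits. The endothelial marker sum of the medial libraries was higher in the BT of each rabbit too, at 1742 and 1232 CPM in the BT and 1549 and 630 CPM in the BA. Its part in the medial levels of PLAT and PROCR was not tested. The ALX4 level was higher in the media than in the intima at each location of each rabbit. The part of medial tissue in its intimal level was not tested. Of the 12 lower ones, 5 shared the sign and HP passed (-1.81 ± 0.39, SE, q = 0.000676), while 2 passed with the opposite sign, ISG15 and CXCL10.

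Across 7977 genes tested in both layers, the mean log2 ratios of the ligated intima and media had a correlation of 0.115. Within single rabbits it was 0.023 in rabbit 5 and 0.038 in rabbit 6. Some other genes that differed in the intima at an unadjusted p below 0.05, or with non-overlapping groups, passed in the media with the same direction. They were picked for that, and genes with the opposite direction were not counted. TIMP1 was at 14646 and 11617 CPM in the BT and 5857 and 2538 CPM in the BA media (q = 6.54e-18). ADAMTS1 was at 1019 and 543 CPM and 457 and 206 CPM (q = 0.000115). CRYAB was at 9221 and 10479 CPM and 32399 and 29953 CPM (q = 2.48e-20). DNAJB4 was lower as well, at 39.0 and 69.5 CPM and 141 and 217 CPM (q = 0.000105), and so was CTGF (q = 0.00277). The CRYAB level was higher in the media than in the intima at each location of each rabbit. The part of medial tissue in the intimal CRYAB level was not tested. NOS3 was at 227 and 93.4 CPM and 149 and 7.86 CPM (q = 8.91e-05), higher in the BT. The endothelial marker sum of the medial libraries was 1742 and 1232 CPM in the BT and 1549 and 630 CPM in the BA. NOS3 is itself a member of that sum, so their shared direction is not independent. The part of EC RNA in its medial level was not tested.

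In the media the interferon-stimulated genes differed between the rabbits. The list's median log2 ratio of BT to BA was -0.45 in rabbit 5, the sign of the intima, and 2.26 in rabbit 6, and the fit over both gave 0.96, against -2.49 in the intima. ISG15 was at 175 and 424 CPM in the BT and 137 and 88.1 CPM in the BA (1.31 ± 0.31, SE, q = 0.00356), higher in the BT of each rabbit. CXCL10 was at 10.6 and 162 CPM and 15.8 and 0 CPM (q = 0.00177), lower in the BT of rabbit 5 and higher in that of rabbit 6. The difference between layers was tested as an interaction, in which 0 of 9242 genes passed (0.00%), 260 had an unadjusted p below 0.05 (2.81%), DESeq2 called 13 and limma-voom 0. ISG15 had an interaction of -4.17 ± 0.68 (SE), the smallest p among genes with a negative interaction, that is, a lower BT to BA ratio in the intima than in the media. PROS1 and EYA1, both without a count in the BT intima, followed. In the opposite direction EFHB and LUM had the smallest p, with groups at 0 in the BT media for EFHB and in the BA intima for LUM. The next, BNIP2, at 149 and 151 CPM in the BT and 111 and 133 CPM in the BA in the intima and lower in the BT media (q = 0.00597), had an interaction of 2.01 ± 0.47 (SE).

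**Figure D5:**
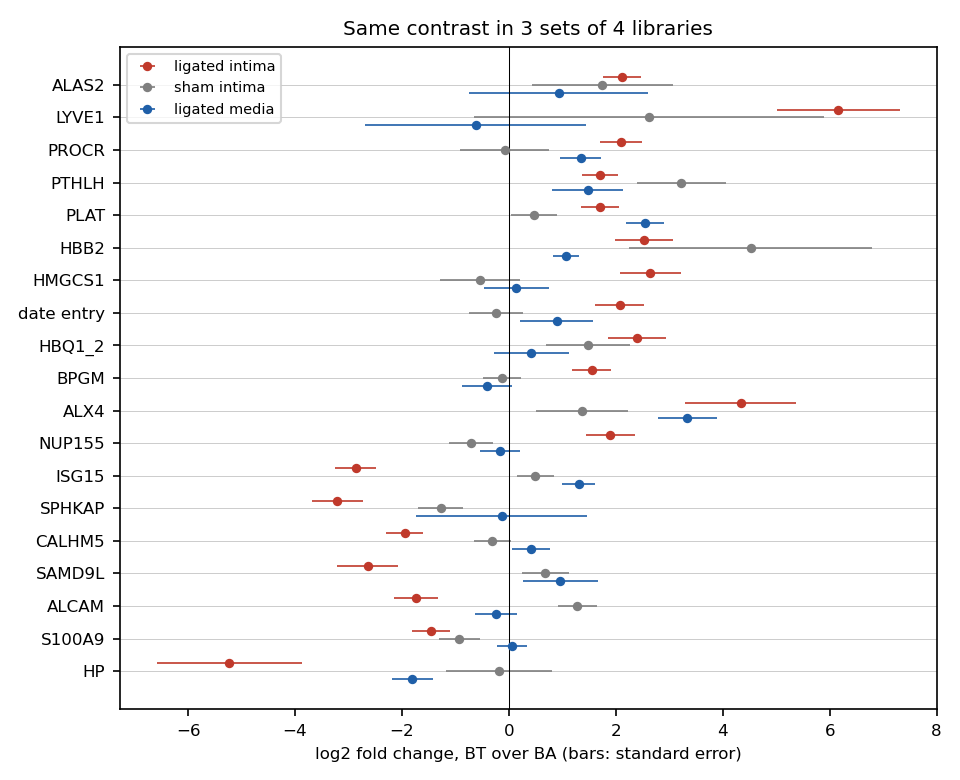
Log2 fold change of BT over BA with its standard error (bars) for the named genes that had counts in both locations, in the ligated intima (red), the sham intima (grey) and the ligated media (blue), each from 4 libraries. PLAT, ALX4 and PROCR lie right of 0 in both layers of the ligated rabbits, and ISG15 lies left of 0 in the ligated intima (-2.87) and right of it in the ligated media (1.31).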

How the data were processed

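Total RNA of laser-microdissected intima and media was amplified by the authors with SMART-Seq v4, sequenced, aligned to OryCun2.0 with STAR and counted per gene with featureCounts 1.6.2. The files they deposited hold unnormalized read counts, 1 row per symbol. The library kit does not mark strand, so overlapping and antisense genes cannot be told apart. The entry without a symbol (17.2% to 18.6% of counts in these 4 libraries) was left out. Dates had replaced 22 of 13788 symbols. No sample column was left unused.

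Counts were scaled by TMM and tested in R 4.3.3 with edgeR 4.0.16 (quasi-likelihood, legacy form) for genes with a mean above 1 CPM in a group. Rabbit was the block, because both locations came from the same animal. The correlation of same-rabbit deviations from the group means was 0.069. With 2 pairs, 1 residual degree of freedom remained. The authors used RPKM filters, for which gene lengths were not used here. P-values were adjusted by Benjamini-Hochberg, with a q threshold of 0.05. Ratios within a rabbit are of CPM, and log2 ratios used a pseudocount of 0.5 CPM. Replicates differed by far more than counting error (chi-square per degree of freedom 168 in the BT and 97.6 in the BA).

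Tested on simulated data, the fit for the BT against the BA in the ligated intima found 71.5% of 200 genes (of 8126) changed by 3 on the log2 scale, with 14 false calls among 157. Alternatives were library size alone, RLE scaling, other filters, DESeq2 1.42.0, limma-voom (limma 3.58.1), other fits and leaving out each rabbit.

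Genes were named by rule: the 12 smallest unadjusted p in each direction among genes with a mean above 10 CPM that moved the same way in both rabbits, the 3 smallest in each direction of both interactions, members of the lists at an unadjusted p below 0.05, and defining members. Other members were picked after their values were seen. The members and lists were chosen with earlier results of these data known, and the lists of cholesterol and red cell genes were added after the counts were examined. Values of some single list members are not reported here.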

Additional observations from a re-analysis of the deposited data

Results flagged for a closer look

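In 4 gene lists the median log2 ratio of BT to BA had the same sign in both ligated rabbits and the opposite sign in both sham rabbits. They were picked for this pattern out of 35 list medians, counting that over all genes. Some lists can show such signs by chance, and how many would do so was not tested. The differences between flows were not tested either. For interferon-stimulated genes the medians were -0.63 and -3.05 in rabbits 5 and 6 and 0.41 and 0.28 in rabbits 3 and 4, a difference of -2.18 between the means. The genes for extracellular products chosen by the study had medians of -0.84 and -0.31 in the ligated and 0.61 and 0.56 in the sham rabbits, a difference of -1.16. The study chose that set by its difference between ligated and sham rabbits in these same intimal libraries. Its signs are therefore not independent evidence of a pattern. Integrins and adhesion genes had 0.05 and 0.11 in the ligated and -0.90 and -0.21 in the sham rabbits, a difference of 0.636. Brain barrier genes had -0.28 and -0.08 in the ligated and 0.34 and 0.15 in the sham rabbits, a difference of -0.421.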

How the results depend on the processing

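The count of 0 genes in the ligated intima stayed 0 with library size alone, RLE scaling, all genes with a count, filterByExpr, the version 4 quasi-likelihood form, the fit over 16 libraries and without the replicate block, and became 58 with DESeq2, 2 with limma-voom, 1 in the fit over the 8 intimal libraries, and 1 to 249 when 1 rabbit was left out. The pairing is that of the animals, and dropping the block changed 0 calls here. It changed the sham count from 10 to 0 and the medial count from 178 to 1. The sham count was 2 over 16 libraries, 1 over 8, 134 with DESeq2, 46 over all genes with a count, 110 with library size alone, 146 with limma-voom, 1 in the version 4 form and 0 to 0 without a rabbit. The medial count was 0 over 16 libraries, 37 over 8, 105 with DESeq2, 87 with filterByExpr, 18 with library size alone, 0 in the version 4 form and 19 to 76 without a rabbit. The interaction with flow gave 63 genes with DESeq2, 1 over all genes with a count, 1 with library size alone and 0 to 176 without a rabbit. The interaction with layer gave 13 with DESeq2 and 2 to 2 without a rabbit, the latter over 12 libraries. The cause of these shifts was not tested.

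For 90 genes named in the intimal comparison, 1065 alternative values included 1005 on the same side of the threshold in the same direction, 53 newly past it and 7 with a changed sign. Leaving out 1 rabbit gave log2 fold changes from -0.059 to 0.86 for PECAM1, -0.051 to 2.99 for CDH5, -1.95 to 0.035 for ACTA2, -2.24 to 0.097 for TNC, -0.37 to 2.02 for PLAUR, -2.44 to 0.78 for S100A8 and -0.048 to 1.00 for CALCRL. Of 130 values for the interaction genes, 116 stayed and 14 passed the threshold. Genes without a count in the remaining rabbit gave no value. Of 174 list medians, 140 moved by less than 1 SD between rabbits.

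In simulated data for this comparison 71.5% of genes changed by 3 on the log2 scale were found, so smaller changes are open to being missed. That share is for genes with a mean above 10 CPM, and recovery at lower levels was not tested. Without a rabbit the lone pair is assumed to vary like the other pairs.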
